A study of Rattus norvegicus with 4 samples.

Results

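The 10 genes described here mark astrocytes and radial glia, and were taken as the transcripts whose symbol was Gfap, Aqp4, Fabp7, Aldh1l1, S100b, Sox9, Hes5, Aldoc, Vim or Nes. They are 10 of the 17419 transcripts in the RNA-seq of rat frontal cortex and of the 16182 listed in all 4 libraries, and each symbol had 1 transcript. The study asked how bisphenol A (BPA), a compound of polycarbonate plastics and epoxy resins with hormone-like activity, given before birth affects the cortex of male and female pups. There was 1 library for each sex and treatment, that is control male, BPA male, control female and, last, BPA female. All came from Wistar rats on postnatal day 1, as the labels have it, whereas the study's methods name the inbred Wistar Furth strain and allow a day more, and no transgene or deletion is named. The mothers of BPA pups received 5000 µg of BPA per kg of body weight by gavage every day from gestational day 1 until birth. Those of control pups received the vehicle, ethanol in corn oil, which the BPA group received too. The study's methods describe several pups of each sex and treatment, from independent litters of both treatments, but the sources used here do not say whether a library pooled them.

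Radial glia line the ventricle of the fetal cortex, divide to give neurons, and send a long fiber to the surface along which those neurons migrate. Around birth many of them stop making neurons and turn into astrocytes, which take up glutamate and potassium, carry water and metabolites, and cover the blood vessels with their endfeet. Notch signaling with its Hes repressors keeps radial glia undifferentiated, SOX9 and the nuclear factor I proteins open the glial program, and cytokines acting through JAK and STAT proteins turn on Gfap. Nes and Vim mark the radial glial end of this course and Gfap, Aqp4, Aldh1l1, S100b and Aldoc the astrocytic end, while Fabp7 and Sox9 are found along most of it. Some are shared with other cells: Vim is also strong in fibroblasts and vessel cells, and S100b in the oligodendrocyte lineage. In bulk tissue, fewer cells of a type and less RNA per cell cannot be told apart.

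Promoters of 5 of the genes are shown because 4 of them (Gfap, Vim, Fabp7 and S100b) are among the 5 genes that were lower in both BPA libraries than in both controls, while Hes5, the direct Notch target, was not. The promoter of the other gene of those 5, Aqp4, is not shown here. The RefSeq promoter table (GRCr8) held 9 of the 10 genes, all but Sox9. Each line gives the 250 bases before the start of the gene, 5′ to 3′ on its own strand. They are chr10:88361662-88361911 (minus strand) for Gfap, chr17:81577011-81577260 (plus) for Vim, chr20:37669356-37669605 (plus) for Fabp7, chr20:12381082-12381331 (minus) for S100b and chr5:170804327-170804576 (plus) for Hes5. Capitals mark exact matches, on either strand, to the core of the site of RBPJ, the DNA-binding partner of Notch (TGGGAA), to the CCAAT box (CCAAT), the TATA box (TATAAA) and a partial site of the nuclear factor I proteins (TTGGCA). In S100b the partial site overlaps the CCAAT match nearest to the start, so both stand in 1 run of capitals.
Gfap: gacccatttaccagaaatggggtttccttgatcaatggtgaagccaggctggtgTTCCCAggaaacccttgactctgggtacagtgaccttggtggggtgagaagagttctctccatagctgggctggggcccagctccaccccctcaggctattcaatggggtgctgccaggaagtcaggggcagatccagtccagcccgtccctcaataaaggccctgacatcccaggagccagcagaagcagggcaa
Vim: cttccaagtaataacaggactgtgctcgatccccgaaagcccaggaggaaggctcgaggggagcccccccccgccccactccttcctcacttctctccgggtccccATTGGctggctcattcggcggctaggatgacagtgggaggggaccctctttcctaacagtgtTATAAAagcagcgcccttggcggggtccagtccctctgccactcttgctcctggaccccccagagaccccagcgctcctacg
Fabp7: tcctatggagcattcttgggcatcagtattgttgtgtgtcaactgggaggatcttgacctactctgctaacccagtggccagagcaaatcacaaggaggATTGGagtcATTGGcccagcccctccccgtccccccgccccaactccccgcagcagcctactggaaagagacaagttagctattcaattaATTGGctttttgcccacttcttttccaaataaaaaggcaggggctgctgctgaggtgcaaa
S100b: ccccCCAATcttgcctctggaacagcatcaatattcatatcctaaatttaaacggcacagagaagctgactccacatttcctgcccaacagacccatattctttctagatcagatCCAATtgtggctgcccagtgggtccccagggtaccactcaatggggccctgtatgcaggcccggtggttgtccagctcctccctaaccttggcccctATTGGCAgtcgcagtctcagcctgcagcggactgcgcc
Hes5: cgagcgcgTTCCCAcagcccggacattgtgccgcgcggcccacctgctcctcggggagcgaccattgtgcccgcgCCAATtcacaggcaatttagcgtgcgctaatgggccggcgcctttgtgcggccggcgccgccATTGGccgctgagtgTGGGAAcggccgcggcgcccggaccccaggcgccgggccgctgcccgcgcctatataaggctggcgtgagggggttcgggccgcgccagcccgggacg

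The RBPJ core occurred in 3 of the 9 promoters (Aldh1l1, Gfap and Hes5), against 22.1% of the 33469 promoters in the table. Hes5 held 2, at 98 and 242 bases before the start, and Gfap 1, at 196 bases. The CCAAT box was in 6 of 9, against 34% of all promoters, with 3 matches each in Fabp7 and S100b. The TATA box was in Vim (12.9% of all promoters), 82 bases before the start, and the partial site in S100b (12%). No promoter of the 9 held the STAT motif TTCNNNGAA, found in 7.67% of all. A match is a description of these letters, and no binding was measured.

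The levels were given as FPKM, fragments scaled to transcript length and to the mapped fragments of the library, so that genes can be compared per length. Each library held an estimated 8956500 to 9262750 fragments, recovered from the steps between low FPKM values, and the lists of control and BPA transcripts were the same within a sex. Fabp7 was by far the most abundant of the 10 genes, with a mean of 472 FPKM over the 4 libraries, above 99.3% of the transcripts listed in all 4. Vim (mean 110 FPKM) and Aldoc (88.5 FPKM) followed, with ranges over the libraries that overlapped. Nes (16.9 FPKM), Aqp4 (12.6 FPKM), S100b (11.3 FPKM) and Aldh1l1 (9.6 FPKM) formed a middle group in which each gene overlapped with the next. Gfap (5.75 FPKM), Sox9 (3.39 FPKM) and Hes5 (2.06 FPKM) were lowest, again with overlapping ranges. The radial glial Fabp7 and Vim thus stood far above Gfap on the FPKM scale in every library.

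**Figure D1:**
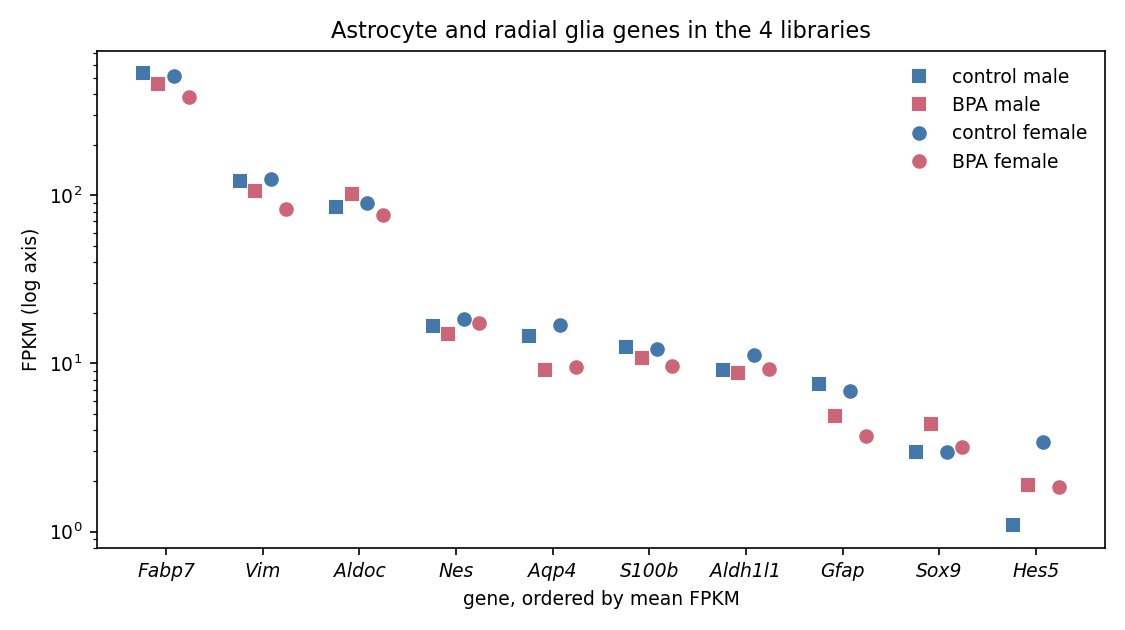
FPKM of the 10 genes in each of the 4 libraries, on a log axis, with genes ordered by mean FPKM, squares for males, circles for females, blue for control and red for BPA. Fabp7 lay between 383.37 and 532.55 FPKM, and for Aqp4 and Gfap both red points lay below both blue ones.

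With the sexes combined, none of the 10 genes passed the test, limma with a Benjamini-Hochberg adjusted p under 0.05, although 7 were lower in BPA in both sexes, and Aqp4 (adjusted p = 0.0549) came closest. In that test the male and the female library served as the 2 samples of a treatment, and over all 13163 transcripts tested 0.562% were called, 60 (0.456%) lower and 14 (0.106%) higher in BPA. At an unadjusted p under 0.05, 5 of the 10 genes (Gfap, Aqp4, Fabp7, S100b and Vim) were lower, where 17.3% of all transcripts differed in either direction at that threshold. The same 5 had both BPA libraries below both controls, as did 31.9% of all transcripts, and 1 gene, Sox9, had both above, as did 18.7%. The count at an unadjusted p under 0.05 was 3 without trend, 4 with median-ratio scaling and 5 with sex as a block. The median log2 ratio of the 10 genes was -0.21, against -0.04 over all transcripts. Where the fit was limited to transcripts with a gene symbol, an alternative chosen after seeing the data, Aqp4 (adjusted p = 0.00614) and Gfap (adjusted p = 0.0392) passed, both lower, beside 4.49% of the 10629 transcripts tested (3.79% lower). Over all alternatives the adjusted p ran from 0.00614 to 0.283 for Aqp4 and from 0.0392 to 0.39 for Gfap.

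Within a sex, 1 library stood against 1, without a replicate check, so these ratios compare those libraries and not the conditions. None of the 10 genes reached a log2 ratio of 1 in either direction, which 4.28% of 16782 transcripts did in males and 5.15% of 16819 in females. The median log2 ratio of the 10 genes was -0.18 in males and -0.37 in females, against -0.04 over all transcripts tested in each sex. Ratios of FPKM are given below with exact 95% intervals from the estimated fragments, which cover counting error only.

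Aqp4, the water channel of astrocyte endfeet, came closest to the threshold of the combined test, with a log2 ratio next to that of Gfap. It stood at 14.64 FPKM in the control male, 9.18 in the BPA male, 16.89 in the control female and 9.53 in the BPA female library. Both BPA libraries lay below both controls, and the BPA libraries were nearly level with each other. The FPKM was 37.3% lower with BPA in males (ratio 0.627, interval 0.553 to 0.709) and 43.6% lower in females (ratio 0.564, interval 0.5 to 0.637). The combined log2 ratio was -0.72 (SE 0.104, n = 2 per treatment, limma adjusted p = 0.0549). Between the 2 control libraries the log2 ratio, female minus male, was 0.20, smaller than the difference with BPA in either sex.

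Gfap encodes the intermediate filament protein that is the classic marker of astrocytes. Its level was 7.54 FPKM in the control male, 4.89 in the BPA male, 6.87 in the control female and 3.69 in the BPA female library. As for Aqp4, the treatments did not overlap. The FPKM ratio of BPA to control was 0.649 (interval 0.51 to 0.82) in males and 0.537 (interval 0.409 to 0.7) in females, on 88 to 185 estimated fragments per library. With the sexes combined the log2 ratio was -0.70 (SE 0.165, n = 2 per treatment, limma adjusted p = 0.133).

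The other filament genes of the radial glial end were less far apart. Vim, which encodes vimentin, had 121.81 FPKM in the control male, 106.94 in the BPA male, 126.05 in the control female and 83.50 in the BPA female library. The BPA libraries were again below both controls, with the BPA female lowest. Its FPKM ratio was 0.878 (interval 0.822 to 0.937) in males and 0.662 (interval 0.617 to 0.711) in females, and its combined log2 ratio -0.39 (SE 0.115, limma adjusted p = 0.191). Without the BPA female library that ratio was -0.21, and without the BPA male -0.57. Nes, which encodes nestin, the filament protein of neural stem cells, had 16.78 FPKM in the control male, 14.88 in the BPA male, 18.49 in the control female and 17.30 in the BPA female library. BPA was lower than control within each sex, but the BPA female lay above the control male, so the treatments overlapped. The combined log2 ratio of Nes was -0.13 (SE 0.104, limma adjusted p = 0.557), and between -0.24 (without the BPA female) and -0.03 (without the BPA male) with a library left out.

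Fabp7 encodes the fatty acid binding protein of radial glia and immature astrocytes. It had 532.55 FPKM in the control male, 457.14 in the BPA male, 515.56 in the control female and 383.37 in the BPA female library. The treatments did not overlap, and with 1872 to 2674 estimated fragments per library the counting intervals were narrow. The ratio was 0.858 (interval 0.811 to 0.908) in males and 0.744 (interval 0.7 to 0.79) in females, and the combined log2 ratio -0.32 (SE 0.0925, limma adjusted p = 0.183), which was -0.20 without the BPA female library. S100b, a calcium-binding protein of astrocytes, had 12.57 FPKM in the control male, 10.83 in the BPA male, 12.21 in the control female and 9.66 in the BPA female library. Its BPA libraries were both below the controls, yet in each sex the counting interval of the ratio held 1 (0.684 to 1.08 in males, 0.619 to 1.01 in females). The combined log2 ratio of S100b was -0.26 (SE 0.0997, limma adjusted p = 0.257).

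The metabolic enzymes did not follow Aqp4. Aldh1l1, a folate enzyme found in nearly all astrocytes, had 9.12 FPKM in the control male, 8.79 in the BPA male, 11.19 in the control female and 9.31 in the BPA female library, so that the BPA female lay between the controls. Its combined log2 ratio was -0.15 (SE 0.126, limma adjusted p = 0.572), and was -0.01 without the control female library and -0.29 without the control male. Aldoc, the aldolase of astrocyte glycolysis, had 85.68 FPKM in the control male, 102.56 in the BPA male, 89.75 in the control female and 76.12 in the BPA female library. The BPA male was the highest and the BPA female the lowest of the 4, with ratios of 1.2 (interval 1.11 to 1.29) in males and 0.848 (interval 0.78 to 0.922) in females. The combined log2 ratio of Aldoc was 0.01 (SE 0.135, limma adjusted p = 0.975) and turned to -0.20 without the BPA male library and to -0.02 without the control male library.

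The transcription factors were the least abundant of the 10 genes. Sox9, needed for glial fate, had 2.97 FPKM in the control male, 4.39 in the BPA male, 2.99 in the control female and 3.20 in the BPA female library. The BPA male stood apart and the other 3 libraries were close together. The ratio was 1.48 (interval 1.15 to 1.9) in males and 1.07 (interval 0.821 to 1.42) in females. The combined log2 ratio was 0.29 (SE 0.198, limma adjusted p = 0.484), and 0.09 without the BPA male library. Hes5, a repressor that Notch turns on in radial glia, had 1.09 FPKM in the control male, 1.90 in the BPA male, 3.41 in the control female and 1.84 in the BPA female library. These values rest on 5, 9, 16 and 9 estimated fragments, the control libraries were the lowest and the highest of the 4, and no difference was detectable at this depth (intervals 0.546 to 6.89 in males and 0.218 to 1.34 in females). The combined log2 ratio of Hes5 was -0.07 (SE 0.431, limma adjusted p = 0.946). It was 0.58 without the control female library and -0.72 without the control male library.

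**Figure D2:**
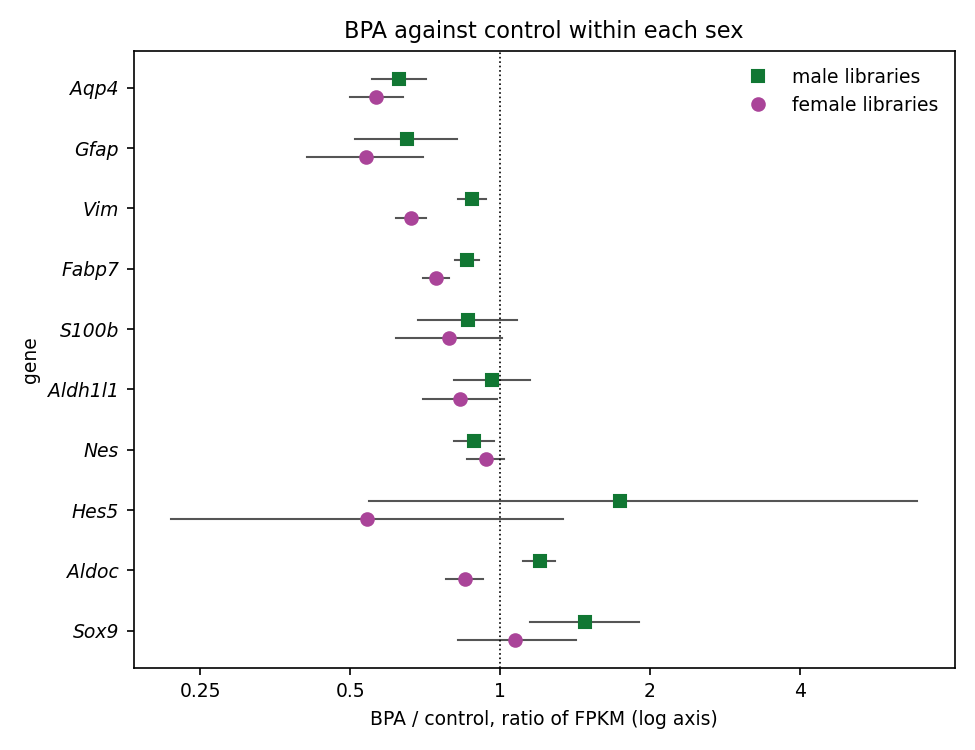
Ratio of FPKM, BPA over control, for the 10 genes in males (green squares) and females (purple circles), on a log axis with 95% counting intervals as bars and a dotted line at 1. Intervals lay wholly below 1 for 5 genes in males and 6 in females and wholly above 1 for 2 genes in males (Sox9 and Aldoc) and 0 in females, and those of Hes5 spanned the widest range.

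Male and female libraries of the same treatment differed less than those of different treatment for Aqp4 and Gfap, but not for all genes. Between the control libraries 1 gene, Hes5 (log2 ratio 1.30, female minus male), passed a log2 ratio of 1, as did 3.10% of all transcripts, and between the BPA libraries 0 did, against 3.14%. The median absolute log2 ratio of the 10 genes was 0.10 between the controls, 0.23 between the BPA libraries, 0.24 between treatments in males and 0.37 in females. For Aldoc (-0.43), Sox9 (-0.40), Gfap (-0.36) and Vim (-0.36) the BPA female was lower than the BPA male on the log2 scale, where the controls differed by 0.07, 0.01, -0.13 and 0.05. Whether the sexes responded differently was not tested, since each cell of the design held 1 library.

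The transcripts whose course over the 4 libraries was most like that of Aqp4, by Euclidean distance between log2 values centred on each transcript's mean, included an assembled transcript without a symbol and Abcb1, Uaca and Angpt1. Abcb1, an efflux pump of the brain endothelium, had 2.80 FPKM in the control male, 1.62 in the BPA male, 3.36 in the control female and 1.76 in the BPA female library. Angpt1, a ligand of the endothelial receptor Tek, had 2.84, 1.68, 3.54 and 1.77 FPKM in the same order. The course nearest to the median of the 10 genes was that of Nt5dc2 (35.73, 33.14, 38.39 and 29.04 FPKM), followed by Srek1ip1, Golim4, Zfp110 and Vasn. None of these transcripts belonged to a list used here, and likeness over 4 libraries is a description.

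Among 26 other astrocyte genes tested, 2 fell in BPA by limma and 0 rose, where 0.562% of all transcripts were called. One of them was Gjb6, which encodes a gap junction protein (connexin 30) found in astrocytes, though a marker in bulk tissue does not show which cells made it. Gjb6 had 6.92 FPKM in the control male and 2.36 in the BPA male library, and 7.81 and 1.71 in the female ones, a combined log2 ratio of -1.64 (SE 0.187, limma adjusted p = 0.0407). The call of Gjb6 was lost when any 1 of the 4 libraries was left out, with adjusted p values from 0.121 to 0.237, and the list held 0 called genes in each of those fits. The median log2 ratio of the list was -0.30, against -0.04 over all transcripts, and in 19 of the 26 genes both BPA libraries lay below both controls, as in 31.9% of all transcripts.

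Other astrocyte genes were lower without passing. Apoe, the main lipid carrier of the brain, had 218.08 and 139.90 FPKM in control and BPA males and 261.94 and 102.38 in females (log2 ratio -0.99, limma adjusted p = 0.0692). Gja1, the gap junction protein connexin 43, had 31.67 and 22.31 FPKM in males and 43.21 and 16.11 in females (log2 ratio -0.95, limma adjusted p = 0.107). The treatments did not overlap for either gene, and the control female was the highest library for both. The bicarbonate transporter Slc4a4 (log2 ratio -0.79, adjusted p = 0.0692) and the glutamate transporters Slc1a3 (-0.39, adjusted p = 0.0726) and Slc1a2 (-0.39, adjusted p = 0.1) were also lower in both sexes (combined log2 ratios, limma). Glul, the enzyme that turns glutamate into glutamine, had 142.77 and 133.54 FPKM in males and 156.17 and 105.52 in females (log2 ratio -0.33, limma adjusted p = 0.235, and -0.16 without the BPA female library). At the other end stood Cbs, an enzyme of sulfur amino acids, with 2.75 and 3.71 FPKM in males and 1.96 and 4.30 in females (log2 ratio 0.67, limma adjusted p = 0.207), and the growth factor receptor Fgfr3 (log2 ratio 0.19, adjusted p = 0.714). Gja1, Slc4a4, Slc1a3, Slc1a2 and Glul were chosen for mention after their values were seen.

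Of 18 other radial glia genes, 0 were called by limma, 3 were at an unadjusted p under 0.05, near the 17.3% of all transcripts, and the median log2 ratio was -0.15. Ednrb, the endothelin receptor B, was lowest, with 16.07 and 12.36 FPKM in control and BPA males and 16.28 and 11.85 in females (log2 ratio -0.40, adjusted p = 0.107). Emx2, a cortical patterning factor, followed (-0.39, adjusted p = 0.478), with -0.03 in males, -0.76 in females and -0.08 without the BPA female library. Nr2e1, an orphan nuclear receptor of neural stem cells (0.32, adjusted p = 0.412, and 0.17 without the BPA male library), and the RNA-binding Msi1 (0.15, adjusted p = 0.337, and 0.10 without the control female library) were highest. Dbi, an acyl-CoA binding protein of glia, had 180.64 and 138.22 FPKM in males and 162.88 and 127.09 in females (log2 ratio -0.37, limma adjusted p = 0.107). With sex as a block Dbi passed and fell (adjusted p = 0.0425). The radial glial factors Pax6 (log2 ratio -0.25, adjusted p = 0.448, and -0.07 without the BPA female library) and Sox2 (-0.00, adjusted p = 0.991) did not pass. Dbi, Pax6 and Sox2 were chosen after their values were seen.

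The 11 Notch genes tested held 0 called, 0 at an unadjusted p under 0.05 and a median log2 ratio of -0.06. Notch2, 1 of the receptors (log2 ratio -0.38, limma adjusted p = 0.346, and -0.21 without the control female library), and the target Heyl (-0.42, adjusted p = 0.386) were lowest, and the ligand Dll3 (0.20, adjusted p = 0.747) and the target Hey1 (0.17, adjusted p = 0.636, and 0.11 without the BPA male library) highest. Hes1, the close relative of Hes5, chosen after its values were seen, had 3.30 and 4.04 FPKM in control and BPA males and 3.66 and 2.26 in females (log2 ratio -0.17, limma adjusted p = 0.776). Like Hes5, it was higher with BPA in the male and lower in the female libraries. In the cytokine and BMP route, 0 of 16 were called and the median was -0.04. At an unadjusted p under 0.05, 4 were lower and 2 higher in BPA, where 17.3% of all transcripts differed in either direction. Id3, a target of BMP signaling, was lowest with 28.92 and 21.70 FPKM in males and 31.60 and 20.10 in females (log2 ratio -0.52, limma adjusted p = 0.0664). Its relative Id2 was highest with 145.04 and 191.34 FPKM in males and 136.18 and 172.57 in females (log2 ratio 0.37, limma adjusted p = 0.096). With sex as a block Id2 passed and rose (adjusted p = 0.0425). Bmp4, a BMP ligand (-0.48, adjusted p = 0.473), and Smad1, which relays the signal (0.22, adjusted p = 0.263, and 0.14 without the BPA male library), stood next to them. The cytokine receptor subunit Il6st (log2 ratio -0.46, adjusted p = 0.142), the kinase Jak1 (-0.27, adjusted p = 0.134) and Stat3 (-0.23, adjusted p = 0.296), chosen after their values were seen, had both BPA libraries below both controls. In the whole route 7 of the 16 did so, as did 31.9% of all transcripts, and 3 had both above, as did 18.7%. For the kinase Jak2 (-0.02) and the receptor subunit Cntfr (0.09), also chosen after their values were seen, the treatments overlapped.

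The list of gliogenic transcription factors, with 8 tested, held 0 called and had a median log2 ratio of 0.09. At an unadjusted p under 0.05, 3 were higher in BPA and 0 lower. Of all transcripts 17.3% differed in either direction at that threshold, 699 of 13163 being higher. Lhx2, placed in this list although it maintains cortical progenitors, had 21.25 and 29.09 FPKM in control and BPA males and 21.05 and 30.61 in females (log2 ratio 0.49, limma adjusted p = 0.0538). Sox8, a relative of Sox9, had 3.06 and 6.03 FPKM in males and 3.30 and 5.07 in females (log2 ratio 0.71, limma adjusted p = 0.125). Of the nuclear factor I genes, Nfix had 140.39 and 162.24 FPKM in males and 121.34 and 176.73 in females (log2 ratio 0.37, limma adjusted p = 0.131), while Nfib (0.04, adjusted p = 0.846) and Nfia (0.06, adjusted p = 0.676) stood near 0. Zbtb20, a repressor active in astrocyte formation, was lowest (-0.26, adjusted p = 0.512, and -0.10 without the BPA male library). Nfix and Nfia were chosen after their values were seen.

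Of 9 reactive astrocyte genes tested, 0 were called and 4 were at an unadjusted p under 0.05, all lower in BPA, with a median log2 ratio of -0.70. Of all transcripts 17.3% differed in either direction at that threshold, 1584 of 13163 being lower. Emp1, an epithelial membrane protein, was lowest with 5.73 and 2.49 FPKM in males and 7.07 and 1.76 in females (log2 ratio -1.40, limma adjusted p = 0.0565), followed by the complement inhibitor Serping1 (-0.93, adjusted p = 0.184). B3gnt5, a glycosyltransferase (-0.01, adjusted p = 0.978), and Ptx3, a pentraxin (0.08, adjusted p = 0.894), were highest. Several genes of this list, Emp1 and Serping1 among them, are also made by fibroblasts and vessel cells. Among 20 tested paralogs of the 10 genes, 0 were called, 4 were at an unadjusted p under 0.05, near the 17.3% of all transcripts, and the median was -0.13. The neurofilament gene Nefl (log2 ratio -0.44, adjusted p = 0.154, and -0.29 without the BPA male library) and the calcium-binding S100a6 (-0.88, adjusted p = 0.315, and -0.31 without the control female library) were lowest, and Sox8 and Sox10 (0.15, adjusted p = 0.621, and 0.05 without the control male library) highest. Fabp5, the fatty acid binding protein most like Fabp7 in level, had 638.41 and 670.30 FPKM in males and 587.73 and 610.89 in females (log2 ratio 0.06, limma adjusted p = 0.711). Aldoa, the general form of aldolase, was at -0.21 (adjusted p = 0.235, and -0.13 without the BPA female library). Fabp5 and Aldoa were chosen after their values were seen.

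**Figure D3:**
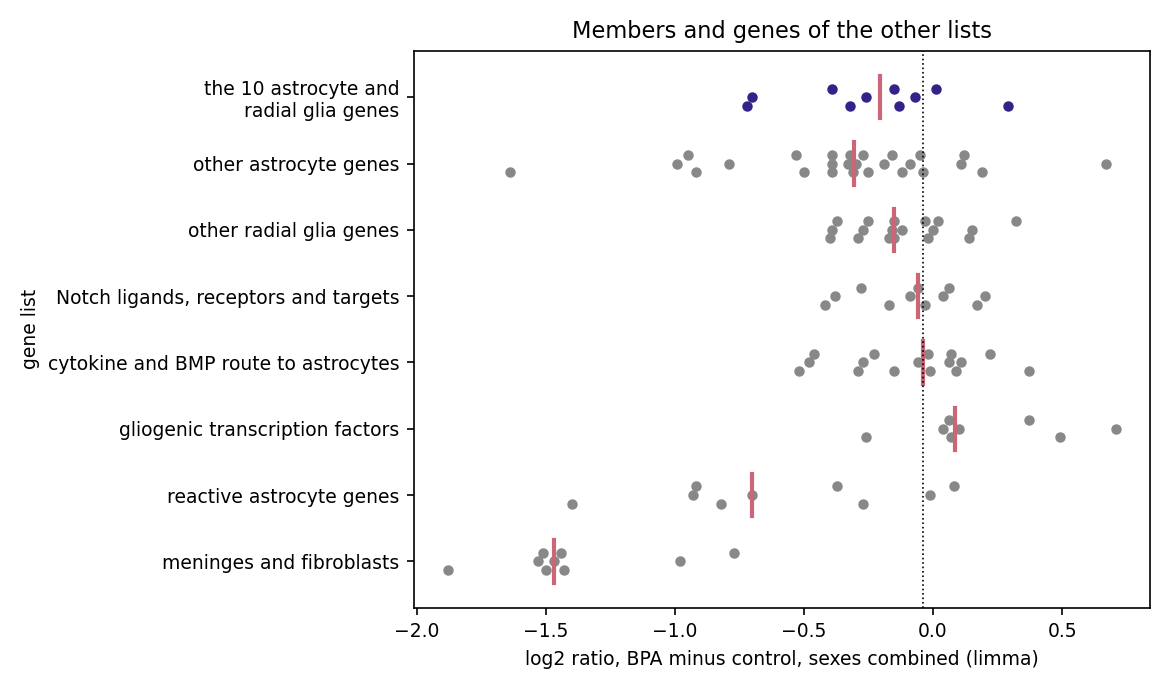
Log2 ratio of BPA to control with the sexes combined, from limma, for each tested gene (points) of the 10 astrocyte and radial glia genes and of the 6 pathway lists and the meningeal markers, with the median of each list as a red bar and that of all transcripts as a dotted line at -0.04. Among the lists drawn, the medians ran from 0.09 for gliogenic transcription factors over -0.21 for the 10 genes to -1.47 for meninges and fibroblasts.

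Markers of meninges and fibroblasts were lower in BPA beside these differences, while those of other cells went either way. Of 9 tested markers of meninges and fibroblasts, 6 fell in BPA by limma, against 0.456% of all transcripts, and all 10 were listed in every library. Their summed FPKM was 249 and 289 in the control male and female libraries against 104 and 78.8 in the BPA libraries, although the study's methods state that the meninges were taken off. Igf2, a growth factor, had 61.22 and 18.69 FPKM in control and BPA males and 61.10 and 14.13 in females (log2 ratio -1.88, SE 0.129, limma adjusted p = 0.0253), and the collagen gene Col1a1 had 35.91 and 14.95 in males and 43.39 and 12.23 in females (log2 ratio -1.51, limma adjusted p = 0.0255). Both calls were lost without any 1 of the 4 libraries, with adjusted p values from 0.058 to 0.161. Of 9 tested markers of endothelium and mural cells, 0 were called and 6 were at an unadjusted p under 0.05, against 17.3% of all transcripts. Their summed FPKM was 134 and 154 in controls and 111 and 94.5 with BPA. That of microglia was 42.1 and 46.1 against 41.3 and 30.2 (0 of 8 called, 1 at an unadjusted p under 0.05), and that of the oligodendrocyte lineage 110 and 125 against 102 and 104 (0 of 8 called, 3 at an unadjusted p under 0.05). Aqp4 and Gjb6 belong to the endfeet on vessels and beneath the meninges, and Vim and Apoe are made by cells of the meninges and vessels too. The log2 ratio of Gjb6 (-1.64) was nearer to the median of the meningeal markers (-1.47) than to that of the other astrocyte genes (-0.30). The part of meningeal and vessel cells in the values of the 10 genes and of Gjb6 was not tested.

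Neuronal markers had summed levels of 3937 and 3808 FPKM in controls and 4190 and 4057 with BPA, and all 11 were listed in every library. Tubb3, a neuronal tubulin, made up much of these sums, with 1569.25 and 1886.54 FPKM in control and BPA males and 1552.23 and 1767.86 in females. The median log2 ratio of the 11 was 0.02. At an unadjusted p under 0.05 in limma, 3 were lower (Slc17a7, Syp and Gad1) and 1 higher (Tubb3), where 17.3% of all transcripts differed in either direction. The 1 called among the 11, the cortical glutamate transporter Slc17a7, fell, with 51.08 and 30.00 FPKM in control and BPA males and 56.97 and 32.17 in females (log2 ratio -0.79, limma adjusted p = 0.0274). Markers of striatal neurons summed to 48.3 and 52.1 FPKM in controls and 84.8 and 91.5 with BPA, where 1 of 7, Rxrg, rose (log2 ratio 1.79, limma adjusted p = 0.0253), against 0.562% of all transcripts called. At an unadjusted p under 0.05, 5 of the 7 were higher and 0 lower, against 17.3% of all transcripts in either direction. Markers of olfactory bulb projection neurons summed to 74.4 and 86.5 FPKM in controls and 48.4 and 47.6 with BPA, and 1 of 2 tested, Cdhr1, fell (log2 ratio -2.04, limma adjusted p = 0.00834). The call of Slc17a7 was lost without any 1 library (adjusted p 0.0823 to 0.168), that of Rxrg without the control male, BPA male or BPA female library (up to 0.168) and that of Cdhr1 without either BPA library (up to 0.0744). These lists name regions near the frontal cortex, and their part in the glial values was not tested. Markers of dividing cells (99.7 and 98 FPKM in controls, 94.9 and 90.4 with BPA), olfactory ensheathing glia (119 and 112 against 110 and 147) and blood (478 and 453 against 455 and 368) held 0 called. At an unadjusted p under 0.05 were 2 of 6, 3 of 5 and 0 of 2 tested, against 17.3% of all transcripts. The 4 markers each of ependyma and choroid plexus that were listed in all 4 libraries summed to at most 2.84 FPKM in any library, which leaves out Ttr, an abundant choroid plexus transcript, and the ependymal Tmem212 and Dynlrb2. No marker of any list stood at the lowest value of the files in all 4 libraries.

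**Figure D4:**
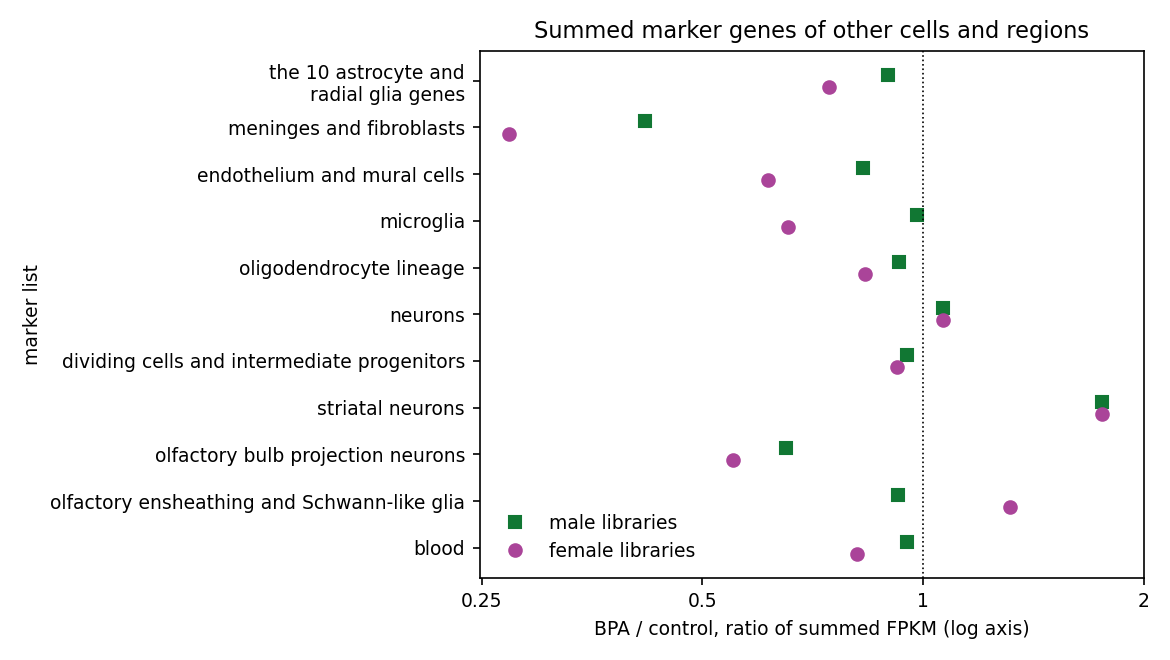
Ratio of summed FPKM, BPA over control, for marker lists of other cells and regions and for the 10 astrocyte and radial glia genes, in males (green squares) and females (purple circles), on a log axis with a dotted line at 1. The 10 genes, whose sum is mostly Fabp7, lay at 0.897 and 0.745, meninges and fibroblasts at 0.418 and 0.273, neurons at 1.06 and 1.07, and striatal neurons at 1.76 in both sexes.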

How the data were processed

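Frontal cortex RNA of 4 libraries, 1 per sex and treatment, was selected with oligo(dT) and sequenced on an Illumina instrument. The authors filtered the reads, mapped them to the rat genome Rnor_6.0 (rn6) with Bowtie2 and estimated levels with RSEM, and HISAT is also named in the submitters' processing notes, all without a version. The authors deposited FPKM, that is, levels normalized for transcript length and depth, with 2 decimals and a lowest value of 0.01 in place of 0. They are not counts, so no count test was run, and levels move with the composition of each library.

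Depth was estimated from the spacing of low FPKM values: the library total was chosen that turned the values of 811 to 879 scarce transcripts, with 60 bases taken off each length, most nearly into whole fragments. Between 79.5% and 81.9% of these came within 0.1 of a whole number, and intervals (exact, 95%) from these fragments cover counting error only. Log2 ratios used log2(FPKM + 0.5), which understates the change of low genes. Within a sex, 1 library was set against 1, with no test. With the sexes combined, limma 3.58.1 (R 4.3.3) with a trend and treatment as the only term was fitted to the 13163 transcripts that averaged 1 FPKM or more, with Benjamini-Hochberg adjustment over all of them. This leaves 2 residual degrees of freedom, and p-values measure the spread between a male and a female library. The fit was tested on simulated data. The outcome is not given here, so nothing about power or false calls is concluded from that test. Other steps used Python 3.11.15, numpy 2.4.6, pandas 2.3.3, scipy 1.17.1 and matplotlib 3.10.9.

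The 10 genes and the other lists were chosen with earlier results of these data known, so counts over a list are a description. All 10 were named. Of each pathway or paralog list the text names called genes (at most 3 in each direction) and the 2 lowest and 2 highest by combined log2 ratio. Of marker lists it names the most abundant and the extreme genes where a value stands beside a result, and it names the 5 transcripts nearest in course to Aqp4 and to the median of the 10 genes. Some results under this rule are not reported here. Genes outside this rule are marked in the text, and Col1a1, Syp and Gad1 were also chosen after their values were seen. Some genes stand in more than 1 list. Promoters came from RefSeq (GRCr8).

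Alternatives were pseudocounts of 0.1 and 1, scaling by median ratios, no filter or one at a mean of 5 FPKM, sex as a block, no trend, each library left out and, chosen after seeing the data, transcripts with a symbol only.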

Additional observations from a re-analysis of the deposited data

Results flagged for a closer look

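Opposite signs in the sexes were found for 2 of the 10 genes, with 34.0% of all transcripts tested doing so. The difference between the sexes (female log2 ratio of BPA to control minus the male one) was -1.33 for Hes5, from 0.59 in males and -0.74 in females, on 5 to 16 estimated fragments per library. For Aldoc it was -0.49, from 0.26 in males and -0.24 in females, with counting intervals of the ratio on opposite sides of 1. Among the other named genes, the same held for Hes1 (-0.85), Ptx3 (-0.70), Sox2 (-0.37), Sox10 (-0.36), B3gnt5 (-0.31) and Nfib (0.23). None of these differences was tested, since each sex and treatment had 1 library.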

How the results depend on the processing

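The count of called genes among the 10 was 0 under pseudocounts of 0.1 and 1, median-ratio scaling, no filter, no trend, sex as a replicate block and each library left out. It was 1 (Aqp4) under a filter at a mean of 5 FPKM, where 8 of the 10 were tested, and 2 (Gfap and Aqp4) with transcripts that have a symbol only. Of 118 combined log2 ratios of the 10 genes under the alternatives, 3 reversed: Hes5 to 0.58 without control replicate 2, and Aldoc to -0.02 without control replicate 1 and -0.20 without BPA replicate 1 (replicate 1 is male, 2 female). With a library left out, Hes5 ran from -0.72 to 0.58 and Aldoc from -0.20 to 0.22. All 60 ratios within a sex kept their sign and their side of a log2 ratio of 1.

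Across the 7 other pathway and paralog lists, 2 genes were called, against 0 with no filter, 0 without trend, 7 under the filter at a mean of 5 FPKM, 4 with sex as a replicate block (Gjb6, Dbi and Id2 among them), 19 with symbol transcripts only and 0 to 0 with a library left out. The count over all transcripts was 74, against 0 with no filter, 0 without trend, 164 under the filter at 5 FPKM, 86 with the sex block, 477 with symbol transcripts only and 0 to 6 with a library left out. The cause was not tested. Scaling by median ratios moved the median of all transcripts from -0.04 to -0.00 and turned B3gnt5 to 0.03 and Sox2 to 0.04. With a library left out, signs turned for B3gnt5 (-0.18 to 0.16), Sox2 (-0.13 to 0.12), Dll3 (-0.01 to 0.40), Fabp5 (-0.00 to 0.13), Fgfr3 (-0.09 to 0.47), Hes1 (-0.53 to 0.19), Nfib (-0.07 to 0.14) and Ptx3 (-0.21 to 0.37). A lone library left in a treatment was assumed to vary like the other treatment. Sex labels paired the libraries for the block, and the labels tie no 2 libraries to a litter. The files held 1 transcript per symbol and no assembled transcript annotated to any of the 10 genes, so single transcripts, the highest transcript and added assembled transcripts gave the main values. Depth limits Hes5 most.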
